A study of Mus musculus with 21 samples.

Results

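Wild-type (WT) mouse liver at 8 months of age was compared with WT liver at 2 months, gene by gene, in a deposited RNA-seq table that holds 1 pooled FPKM value per gene and group. An FPKM is the number of sequenced fragments on a gene divided by the gene's length in kilobases and scaled to the sequencing depth of the library. Genes of 1 FPKM or more in at least 1 of the 2 WT columns were used, which left 10279 of 22520. The difference between ages is that of log2(FPKM + 1), 8 months minus 2 months, and a gene is called higher or lower where it is 1 or more in size. WT here means Ezh2 fl/fl mice without Cre, on a mixed 129SV::FVB/N::C57BL/6 background, untreated. The sign of each difference was looked up in Ezh2 fl/fl Alb-Cre mice (E2KO) of the same 2 ages, in which an albumin-driven Cre deletes Ezh2 in hepatocytes while other liver cells keep it. Ezh1-/- (E1KO) and Ezh1-/- Ezh2 fl/fl Alb-Cre (DKO) liver of both ages entered 1 further fit. Titles name 3 replicates at 2 months and 2 at 8 months, but each group has a single pooled column, so no WT value has a spread between animals and the WT difference has no test. All tissue is whole liver, and everything that differed between the 2-month and 8-month libraries other than age cannot be told apart from age.

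Liver handles fat through linked steps that these lists follow. Hepatocytes take up fatty acids with carriers such as Cd36, make them from sugar with enzymes such as Fasn and Scd1, store them as triglyceride in droplets coated by perilipins and Cide proteins, and burn them in mitochondria and peroxisomes. The nuclear receptor PPAR-alpha senses fatty acids and switches on the burning genes, among them the Cyp4a hydroxylases and Acot thioesterases. Hepatocytes also secrete acute phase proteins such as serum amyloid A and fibrinogen, whose genes respond to interleukin-6 and interleukin-1 during inflammation. Many liver genes differ between males and females through the pattern of growth hormone release, with Cyp2b9 and Cyp4a14 on the female side and Selenbp2 and Cyp7b1 on the male side.

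The columns carried liver RNA from males. Of 15 hepatocyte markers, 10 had a value in the table, and the lowest of them in WT, the liver transcription factor gene Hnf4a, stood at 121.1 FPKM at 2 months and 90.98 at 8 months. Alb, Ttr and Apoa1 are not analysed here. Xist, the RNA of the inactive X chromosome, was at 0.01 to 0.03 FPKM in all 8 columns, and the Y-linked Ddx3y was at 14.63 and 15.31 FPKM in WT. Ezh1 was at 2.38 and 2.04 FPKM in WT at 2 and 8 months, and Ezh2 at 1.11 and 0.91. Ezh2 was at 0.84 and 0.79 FPKM in the columns labelled E2KO and at 0.74 and 1.27 in those labelled DKO, so the DKO column of 8 months had the highest value of the 8. Other liver cells keep Ezh2, and the labels do not say which part of the gene the deletion removes, so these values do not check the deletion; E2KO and DKO are used here as names of the labelled columns. The E1KO column of 8 months held skeletal muscle RNA (Acta1 at 128.92 FPKM against 0 to 0.22 in the other 7 columns) and Ezh1 at 0.88 FPKM against 0.07 in E1KO at 2 months, so fits with and without E1KO are both given. Column totals ran from 558553 to 674119 FPKM, with the highest in WT at 8 months, and read depth is unknown because the table gives no counts.

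In WT, 302 genes were higher at 8 months (2.94% of the genes tested) and 227 were lower (2.21%). Among the protein-coding genes with large differences, Cyp4a14 and Cyp4a10 (fat oxidation), Cfd (adipsin), Cyp2b9 (a female-biased P450) and Cd36 (fat uptake) were higher. Mt1 and Mt2 (metallothioneins), Saa1 and Saa2 (serum amyloid A), Selenbp2 (male-biased) and the receptor genes Egfr and Lifr were lower. The call needs a floor, and of the 302 higher genes 74 were under 1 FPKM at 2 months, while of the 227 lower genes 87 were under 1 FPKM at 8 months. Such genes entered through the age at which they are high. At the edge, Oat went from 277.64 to 556.75 FPKM (1.00, inside) and Decr2 from 65.81 to 132.49 (0.9986, outside), while Xbp1 was inside on the lower side at 204.92 and 101.75 FPKM and Scarb1 outside at 71.19 and 35.2.

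The sign was shared with E2KO more often for the higher genes than for the lower ones. E2KO had the same sign for 244 of the 302 higher genes (80.8%, where 50.0% of all genes tested were above 0 in E2KO) and for 137 of the 227 lower genes (60.4%, where 49.4% were below 0). Past a difference of 1 in the same direction in E2KO were 79 of the higher genes (26.2%, where 1.71% of all genes were called higher in E2KO) and 40 of the lower genes (17.6%, where 1.23% were called lower). Past 1 in the opposite direction were 13 of the 302 higher genes, where 1.23% of all genes were called lower in E2KO. Of the 227 lower genes 30 were, where 1.71% of all genes were called higher in E2KO. The 2 pairs of ages share no column. Among protein-coding genes, a restriction chosen after the values were seen, the same sign held for 191 of 221 higher genes (86.4%) and 117 of 158 lower genes (74.1%). Across all 9820 protein-coding genes the WT and E2KO differences correlated with a Pearson r of 0.286 and a Spearman rho of 0.134, a description over genes that share 4 libraries. The other genotypes gave the same sign for 245 (E1KO) and 262 (DKO) of the higher genes, and for 164 and 150 of the lower genes.

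**Figure D1:**
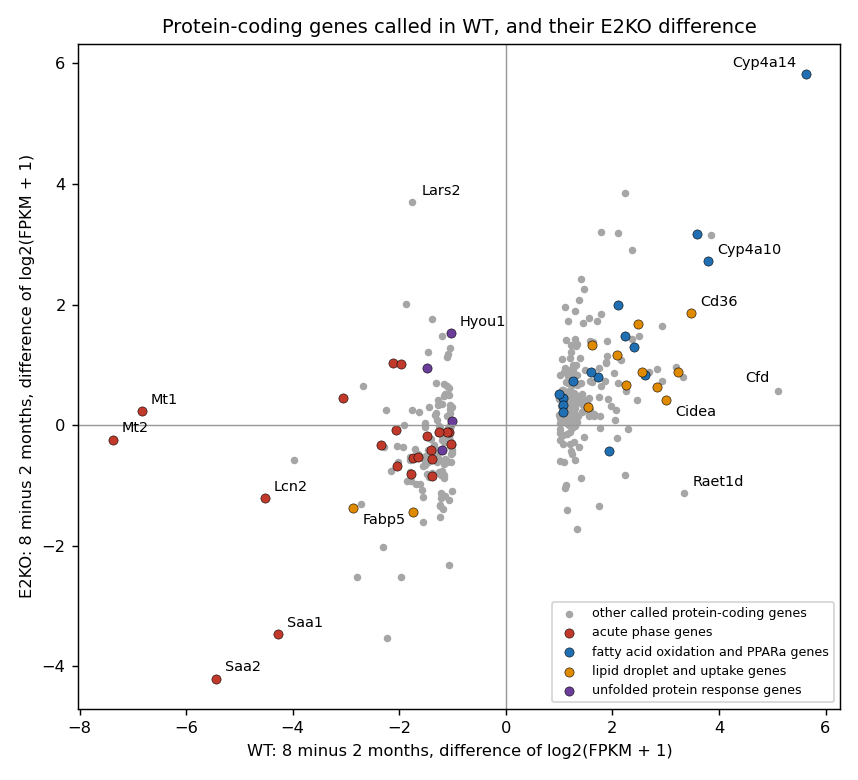
Age difference in WT (horizontal axis) against that in E2KO (vertical axis) for the 379 protein-coding genes called in WT, both as 8 minus 2 months of log2(FPKM + 1). Each point is a gene, coloured by list; fat oxidation and droplet genes lie mostly in the upper right, Saa1, Saa2 and Lcn2 in the lower left, and Mt1 and Mt2 near 0 in E2KO.

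WT itself stood at the edge of the 4 genotypes for many called genes. The call picks genes by their WT values, which by itself favours such a place. The shares over all protein-coding genes carry no such selection, so the gap to them is no separate result. Of the 221 protein-coding genes higher at 8 months, WT was the lowest of the 4 genotypes at 2 months for 130 (58.8%, against 22.4% of all protein-coding genes) and the highest at 8 months for 139 (62.9%, against 30.8%). Of the 158 lower genes, WT was the highest of the 4 at 2 months for 103 (65.2%, against 29.2%) and the lowest at 8 months for 55 (34.8%, against 21.5%). With E2KO put in place of the 2-month WT column, 232 genes were higher and 131 lower, of which 182 and 95 were among the WT calls. With E2KO in place of the 8-month WT column, 202 were higher and 223 lower, of which 116 and 112 were among the WT calls. The WT difference also moved with the length of the gene on the chromosome: with protein-coding genes cut by span into 10 bins, its median was 0.197 in the shortest (median span 2901 bases) and -0.123 in bin 9 (77996 bases), against -0.096 and 0.023 in E2KO. Its part in the called genes was not tested.

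Genes of fatty acid oxidation were called higher in WT more often than all genes tested, and none was called lower. Of 44 listed genes 42 were tested, 4 of them under 1 FPKM at 2 months, and 15 were called higher and 0 lower, against 2.94% and 2.21% of all genes. The median difference was 0.65 against -0.01 over all genes, and 0.60 among the 38 members of 1 FPKM or more at both ages. In E2KO 8 of the 42 were called higher and 0 lower (median 0.26), against 1.71% and 1.23% of all genes. Of the 15 WT calls 14 had the same sign there. The medians were 0.40 in E1KO and 0.42 in DKO.

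Cyp4a14, which hydroxylates the tail carbon of fatty acids, was at 0.74 FPKM at 2 months and 85.15 at 8 months in WT, and at 0.96 and 109.8 in E2KO. E1KO went from 12.66 to 48.69 FPKM and DKO from 33.09 to 116.31, so both started above the WT and E2KO level at 2 months and all 4 columns of 8 months were higher than any of 2 months. Its close relative Cyp4a10 was at 6.59 and 104.53 FPKM in WT and at 9.86 and 70.59 in E2KO. The E1KO column of 2 months, at 48.64 FPKM, and the DKO column of 2 months, at 60.48, were 4 or more times as high as WT and E2KO at that age, and E1KO hardly differed between ages (60.42 FPKM at 8 months). Acot3, a peroxisomal thioesterase gene that frees fatty acids from coenzyme A, was at 0.3 and 14.67 FPKM in WT and at 0.93 and 16.45 in E2KO. Its neighbours in function Acot4 (3.71 and 21.23 FPKM in WT) and Acot1 (3.34 and 17.78) went the same way.

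Abundant oxidation genes were higher by smaller steps. Acaa1b, the peroxisomal thiolase, was at 160.45 and 989.08 FPKM in WT, and at 318.75 and 569.79 in E2KO. Aldh3a2, which oxidises fatty aldehydes, was at 38.65 and 208.24 in WT and at 61.31 and 152.8 in E2KO. Acadm, the medium-chain dehydrogenase of mitochondria, was at 114.84 and 275.75 FPKM in WT. In E2KO it stood at 150.68 and 251.77, the same direction with a smaller step. Fabp1, the main fatty acid carrier inside hepatocytes, had the highest FPKM of the genes analysed here in the WT column of 8 months, with 17605.2 and 37103.4 FPKM in WT, but it was lower at 8 months in E1KO and DKO. Vnn1, a pantetheinase, was higher in WT (11.04 and 44.76 FPKM) and not in E2KO (12.2 and 8.75). Cpt1a, which admits fatty acids to mitochondria, and Ppara itself were not called in WT, at -0.27 and 0.40. Cyp4a10, Cyp4a31 and Cyp4a32, and the Acot genes, are near-identical in parts. The sources used here do not say how reads that match several copies were counted, and which copy differed is uncertain.

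Fat uptake and droplet genes were split, with most of the large differences upward. Of 33 listed genes 30 were tested, 3 of them under 1 FPKM at 2 months. Of the 30, 10 were called higher and 2 lower, against 2.94% and 2.21% of all genes, with a median of 0.31. Over the 27 members of 1 FPKM or more at both ages, 7 were called higher and 2 lower, with a median of 0.25. All 12 WT calls among the 30 had the same sign in E2KO. There 4 of the 30 were called higher and 2 lower (median 0.29), against 1.71% and 1.23% of all genes. Cd36, the fatty acid carrier of the cell surface, was at 3.64 and 50.92 FPKM in WT, at 7.4 and 29.46 in E2KO, at 3.8 and 34.31 in E1KO and at 6.79 and 41.91 in DKO. Every column of 8 months was above every column of 2 months. Mogat1, which makes diglyceride, was at 0.17 and 9.92 FPKM in WT but at 0.4 and 1.59 in E2KO.

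The droplet genes named here differed more in WT than in E2KO. Most were named for a large WT difference, which by itself favours this. Over the whole list the medians were 0.308 in WT and 0.295 in E2KO. Cidea, a droplet fusion protein gene that is typical of brown fat, was at 0.04 and 7.39 FPKM in WT, at 0.01 and 4.61 in E1KO and at 0.08 and 17.64 in DKO, but at 0.04 and 0.39 in E2KO. Its relative Cidec was at 2.35 and 18.57 in WT and at 0.91 and 2.53 in E2KO. G0s2, an inhibitor of the triglyceride lipase ATGL, was at 77.42 and 437.17 FPKM in WT and at 45.5 and 148.51 in E2KO, and Fitm1, which helps droplets form, at 36.07 and 264.09 against 58.04 and 90.72. Pparg, the fat-cell nuclear receptor, was at 2.32 and 14.88 FPKM in WT and at 4.92 and 8.42 in E2KO. The WT column of 2 months was below that of E2KO for Cd36, Mogat1, Fitm1 and Pparg, and the WT column of 8 months was above that of E2KO for all 7 of these higher genes. Lower at 8 months were Fabp5, a fatty acid carrier of skin and macrophages (122.26 and 15.92 FPKM in WT, 58.06 and 21.8 in E2KO), and Lpl, which encodes lipoprotein lipase (7.86 and 1.65, and 4.99 and 1.21).

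Markers of fat tissue were measured beside these genes. Cfd, which encodes adipsin, a complement protease made mainly by fat cells, was at 0.07 and 35.93 FPKM in WT, 0.4 and 1.06 in E2KO, 0.32 and 4.41 in E1KO and 0.09 and 13.69 in DKO. Of 8 adipose markers 4 were tested (Cfd, Cidea, Retn and Fabp4), 3 of them under 1 FPKM at 2 months. In WT 3 were called higher and 0 lower (median 2.08, and 0.39 in E2KO), against 2.94% and 2.21% of all genes. The 3 called were Cfd, Cidea and Retn, the same 3 that entered by their 8-month value. Fabp4, the 1 member of 1 FPKM or more at both ages, was not called (0.80). Of the 4 tested, 2 are also on the droplet list. The summed level of all 8 was 11.6 FPKM at 2 months and 65.6 at 8 months in WT, with 9.42 to 19.2 over the 4 genotypes at 2 months and 13.6 to 65.6 at 8 months. Retn, the resistin gene, was listed at 0 and 1.23 FPKM in WT, and Fabp4, the fatty acid carrier of fat cells and macrophages, was at 11.44 and 20.71. The other 4 markers were near 0 in WT at 8 months, with Adipoq at 0.32 FPKM, Plin1 at 0.03, Lep at 0.02 and Ucp1 at 0. At 2 months Adipoq was at 0.03 FPKM, and Plin1, Lep and Ucp1 at 0. The part of fat-cell RNA in Cfd and Cidea was not tested. In whole tissue, more cells of a type and more RNA per cell cannot be told apart.

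**Figure D2:**
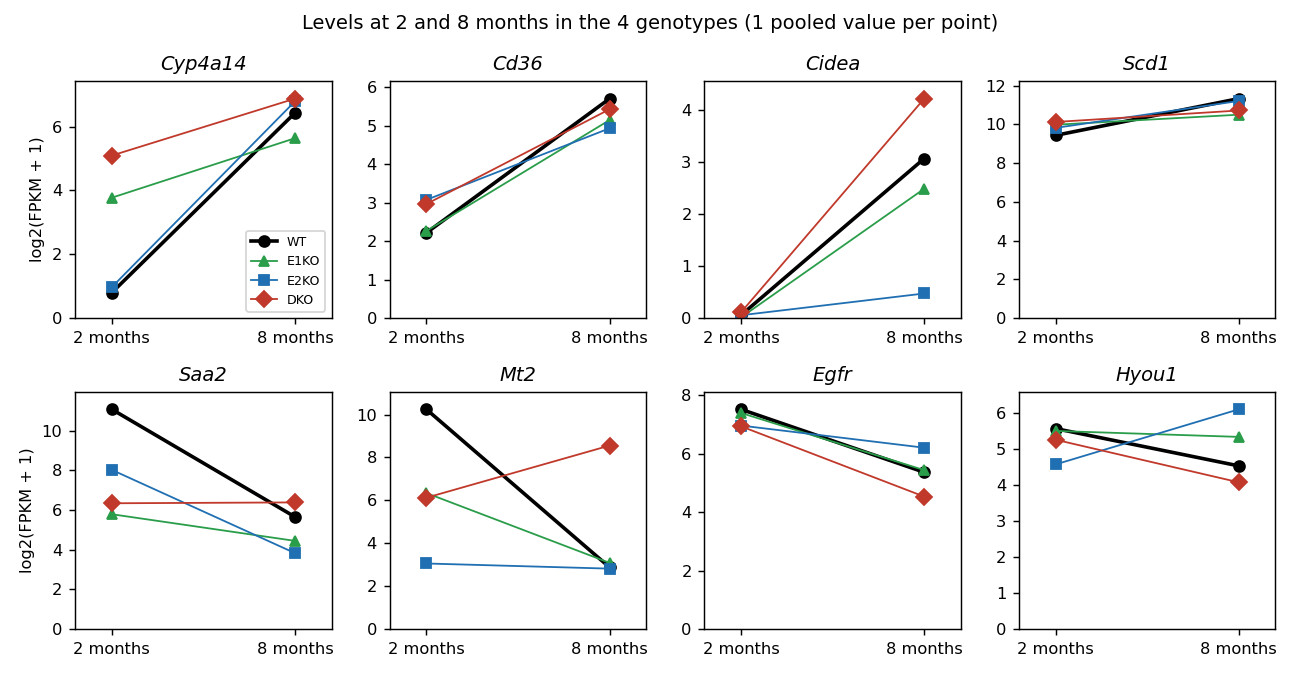
Levels of 8 genes at 2 and 8 months as log2(FPKM + 1), 1 pooled value per point, with WT as the thick black line. Cyp4a14, Cd36 and Scd1 were higher at 8 months in all 4 genotypes, Cidea reached 0.39 FPKM in E2KO, Saa2 and Mt2 in WT started far above the other genotypes, and Hyou1 moved upward only in E2KO among these columns.

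Genes for making fat were also called in 1 direction in WT. Of 33 listed lipogenic genes 30 were tested, each at 1 FPKM or more at both ages. Of the 30, 9 were called higher and 0 lower, against 2.94% and 2.21% of all genes, with a median of 0.56. In E2KO 5 were called higher and 1 lower (median 0.46), against 1.71% and 1.23% of all genes. Of the 9 WT calls 8 had the same sign in E2KO, whereas the medians were 0.11 in E1KO and 0.06 in DKO. Thrsp, a regulator of fat synthesis that responds to thyroid hormone and sugar, was at 787.94 and 3377.2 FPKM in WT and at 728.61 and 1183.46 in E2KO. E1KO had 1675.6 and 1310.63 FPKM of Thrsp, lower at 8 months. Scd1, the main fatty acid desaturase, was at 692.6 and 2583.2 FPKM in WT and at 905.31 and 2373.02 in E2KO. Fasn, fatty acid synthase, was at 21.52 and 77.02 in WT and at 32.24 and 51.09 in E2KO, and the malic enzyme gene Me1 at 52.79 and 197.6 and at 69.13 and 141.69. Elovl6, which lengthens fatty acids, was at 9.06 and 23.82 FPKM in WT and at 7.68 and 22.31 in E2KO. Acss2, which activates acetate, was called in WT (40.37 and 96.96) and was slightly lower in E2KO (70 and 67.36). Of 25 tested cholesterol synthesis and related genes, 4 were called higher and 1 lower, with a median of 0.46 in WT and 0.12 in E2KO. Acat2, which joins acetyl units at the start of the pathway, was at 16.74 and 39.3 FPKM in WT.

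Calls on the female-biased list were mostly higher and those on the male-biased list mostly lower at 8 months in WT, and all columns carried male RNA. Of 48 listed female-biased genes 29 were tested, 11 of them under 1 FPKM at 2 months and so let in by their 8-month value. Of the 29, 13 were called higher and 1 lower (median 0.96), against 2.94% and 2.21% of all genes. Over the 17 of at least 1 FPKM at both ages, 5 were called higher and the median was 0.41. In E2KO 14 of the 29 were called higher and 1 lower (median 0.88), against 1.71% and 1.23% of all genes, while the DKO median was 0.20. Of the 29 genes, 5 are also on the fat oxidation or droplet lists, and in the remaining 24 the median was 0.62 and 8 were called higher. Cyp2b9, a steroid- and drug-metabolising P450, was at 0.09 and 14.8 FPKM in WT, 0.51 and 12.42 in E2KO and 0.3 and 19.43 in E1KO, but at 27.43 and 25.13 in DKO. DKO was thus already high at 2 months. Cyp2c38 was at 4.54 and 27.46 FPKM in WT and at 9.17 and 26.42 in E2KO. Cyp2b13, the near copy of Cyp2b9, was listed at 0 and 6.63 FPKM. The 1 gene called lower, Cyp2c40, was at 4.79 and 0.22 FPKM in WT.

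Of 33 listed male-biased genes 26 were tested, 2 of them under 1 FPKM at 8 months. In WT 10 were called lower and 1 higher, against 2.21% and 2.94% of all genes, with a median of -0.55. In E2KO 8 were called lower and 1 higher, against 1.23% and 1.71% of all genes, with a median of -0.77. Of the 10 WT calls on the lower side, 8 had the same sign there. The medians were -0.67 in E1KO and -0.68 in DKO, so the WT median was the closest to 0 of the 4. Selenbp2, a selenium-binding protein gene, was at 79.34 and 4.11 FPKM in WT, at 645.88 and 37.22 in E1KO and at 305.28 and 16.68 in DKO, but at 50.55 and 33.65 in E2KO. Ugt2b38, a glucuronosyltransferase gene, was at 30.3 and 5.33 FPKM in WT and at 24.34 and 5.24 in E2KO. Cyp7b1, the oxysterol hydroxylase, was at 342.91 and 94.48 FPKM in WT and at 233.42 and 122.74 in E2KO. Socs2, the growth hormone feedback inhibitor, was at 19.51 and 7.93 FPKM in WT but at 5.93 and 18.28 in E2KO. The growth hormone receptor gene Ghr differed by 0.34 in WT and Igf1 by -0.18.

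Among detoxifying transferases more genes were called higher than lower on 1 of 2 lists. Over all genes tested, 2.94% were called higher and 2.21% lower in WT, and 1.71% and 1.23% in E2KO. Of 41 listed glutathione transferase and NRF2 target genes 36 were tested, and 9 were called higher and 2 lower in WT (median 0.40). All 11 had the same sign in E2KO, where 1 was called higher and 1 lower (median 0.12). Gsta2 was at 9.01 and 63.15 FPKM in WT and at 23.85 and 44.58 in E2KO, Gsta3 at 817.31 and 1933.16 and at 1227.9 and 1938.66, and Gstt3 at 19.06 and 71.57 and at 36.67 and 61.26. For these 3 genes WT was below E2KO at 2 months. Of 22 tested UDP-glucuronosyl- and sulfotransferases 2 were called higher and 3 lower in WT (median 0.30, and -0.10 in E2KO). Gstp1, which is male-biased in mouse liver and near-identical to Gstp2, was at 2313.43 and 1099.74 FPKM in WT and at 2676.37 and 1134.77 in E2KO. Of 43 tested xenobiotic P450 genes, 4 of them under 1 FPKM at 2 months, 8 were called higher and 2 lower in WT, and 3 and 3 in E2KO (median -0.02). Of the 43, 11 are on the sex-biased lists, and of the remaining 32 there were 4 higher and 1 lower in WT. The P450 calls included Cyp2a5 (333.07 and 892.73 FPKM) on the higher side and Cyp2c70, the mouse bile acid 6-hydroxylase, on the lower (904.18 and 258.55 FPKM, against 502.86 and 335.93 in E2KO). Nr1i3, which encodes the drug-sensing receptor CAR, was at 40.11 and 91.32 FPKM in WT and at 54.49 and 96.24 in E2KO.

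Most acute phase genes were called lower at 8 months in WT, with the lowest median of the 16 lists plotted. Of 36 listed genes 34 were tested, 33 of them at 1 FPKM or more at both ages, and 22 were called lower and 0 higher in WT, against 2.21% and 2.94% of all genes. The median difference was -1.38. In E2KO 4 were called lower and 2 higher (median -0.32), against 1.23% and 1.71% of all genes. Of the 22 WT calls 18 had the same sign in E2KO. The median was -0.70 in E1KO and -0.28 in DKO. The summed level of the 35 with a value was 43706 FPKM in WT at 2 months against 23110 in E2KO at that age, the lowest of the 4, and 17749 and 18250 FPKM at 8 months. WT was the highest of the 4 genotypes at 2 months for 27 of the 34 genes, and at 8 months for 5.

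Saa2, a serum amyloid A gene, was at 2175.1 and 49.33 FPKM in WT, at 260.45 and 13.17 in E2KO, at 54.34 and 20.77 in E1KO and at 80.2 and 82.68 in DKO. Its near copy Saa1 was at 2517.31 and 128.61 FPKM in WT and at 465.81 and 41.08 in E2KO. Both were far lower at 8 months in both genotypes, but the WT column of 2 months was more than 5 times as high as any other column. Reads shared by Saa1 and Saa2 may be split between them. Lcn2, which encodes the iron-binding protein lipocalin 2, was at 155.73 and 5.81 FPKM in WT and at 7.28 and 2.56 in E2KO. The fibrinogen genes Fga (3042.84 and 736.91 FPKM in WT, 1747.43 and 1087.74 in E2KO) and Fgb (4986.6 and 1491.85, 3030.38 and 2084.65) differed by less in E2KO. Serpina3n, a protease inhibitor gene, was at 467.31 and 90.87 FPKM in WT and at 160.34 and 127.77 in E2KO, and Saa3 was at 146.88 and 16.71 in WT but at 13.87 and 19.26 in E2KO. Lbp, the binding protein of bacterial lipopolysaccharide, went opposite ways, at 66.06 and 14.35 FPKM in WT and at 29.42 and 61.32 in E2KO. Stat3, which carries the interleukin-6 signal, was at 26.72 and 10.6 FPKM in WT and at 16.36 and 14.98 in E2KO. Hamp, the hepcidin gene, was not called in WT (4603.3 and 5071.95 FPKM).

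Metallothioneins, small proteins that bind zinc and copper, gave the lowest values of the comparison. Mt2 was at 1211.62 FPKM at 2 months and 6.31 at 8 months in WT, a difference of -7.37. It was at 7.29 and 6.02 FPKM in E2KO, 79.89 and 7.46 in E1KO and 68.54 and 374.63 in DKO. Mt1 was at 1824.73 and 15.06 FPKM in WT, 60.37 and 71.34 in E2KO, 221.74 and 27.19 in E1KO and 281.29 and 834.17 in DKO. The WT column of 2 months was the highest of the 8 for both genes, E2KO was low at both ages, and DKO was higher at 8 months. The promoters of both genes are shown because metal response elements, to which the zinc-sensing factor MTF1 binds, are their best known control sequences. The stretches run from 250 bases before to 50 bases after the start site in RefSeq (build GRCm38.p6, plus strand, chr8:94178839-94179138 for Mt1 and chr8:94172368-94172667 for Mt2), with matches to the core TGCACNC or TGCGCNC on either strand in capitals.
Mt1: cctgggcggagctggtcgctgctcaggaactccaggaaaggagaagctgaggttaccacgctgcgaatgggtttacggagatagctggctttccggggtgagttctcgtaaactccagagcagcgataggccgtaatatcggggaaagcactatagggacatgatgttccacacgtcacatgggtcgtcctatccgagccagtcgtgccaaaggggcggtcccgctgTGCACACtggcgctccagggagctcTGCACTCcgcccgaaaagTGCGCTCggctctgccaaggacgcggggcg
Mt2: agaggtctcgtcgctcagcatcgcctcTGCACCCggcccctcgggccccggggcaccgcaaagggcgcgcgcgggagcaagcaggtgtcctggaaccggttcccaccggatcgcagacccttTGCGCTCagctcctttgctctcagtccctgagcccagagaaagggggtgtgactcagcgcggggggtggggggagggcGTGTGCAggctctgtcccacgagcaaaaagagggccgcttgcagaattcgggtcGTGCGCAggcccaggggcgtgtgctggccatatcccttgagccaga
The Mt1 stretch held 3 matches and the Mt2 stretch 4. Of 32851 RefSeq promoters of this length 25.7% held at least 1 match and 1.97% held 3 or more, and of the 28 tested acute phase genes with a promoter there, 6 held at least 1. A match is a description of letters and not a site shown to be bound.

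**Figure D3:**
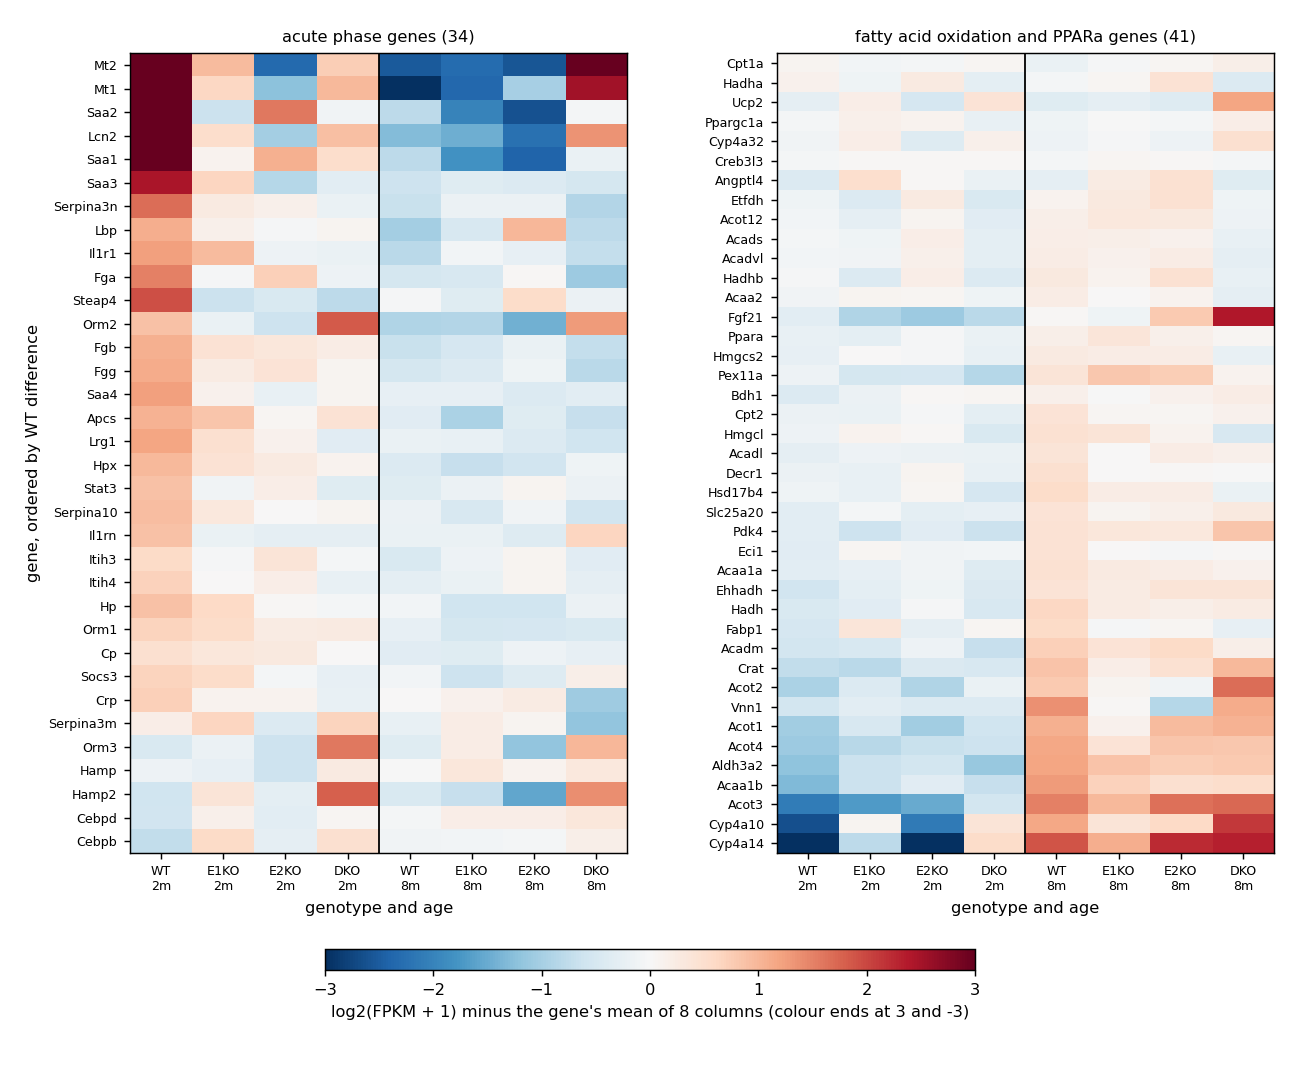
Acute phase genes (left, 34) and fatty acid oxidation genes (right, 41 of the 42) in the 8 columns, as log2(FPKM + 1) minus the gene's mean, with genes ordered by the WT difference. Red is above and blue below the gene's mean; WT has the highest of the 4 values of 2 months for 27 of the 34 acute phase genes, and Acot3, Aldh3a2 and Acaa1b near the foot of the right panel are red in all 4 columns of 8 months.

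Calls among other secreted proteins went both ways. Of all genes tested, 2.21% were called lower and 2.94% higher in WT, and 1.23% and 1.71% in E2KO. Of 24 tested serpin genes 3 were called lower and 2 higher in WT (median -0.42, and 0.04 in E2KO), and of 17 apolipoprotein and HDL genes 1 and 1. Over the 21 serpin genes of 1 FPKM or more at both ages, 2 were called lower and 1 higher. Of 22 tested complement genes 6 were called lower and 2 higher in WT (median -0.55), and in E2KO 2 were lower and 0 higher (median -0.30). Over the 21 members of 1 FPKM or more at both ages, 6 were called lower and 1 higher in WT, since Cfd entered by its 8-month value. C8b, a pore subunit, was at 299.32 and 100.22 FPKM in WT and at 238.91 and 112.57 in E2KO, and C9, which forms the pore, at 580.74 and 244.61 and at 481.05 and 191.04. Egfr, the receptor of epidermal growth factor, was at 183 and 40.28 FPKM in WT, at 124.08 and 72.93 in E2KO, and lower at 8 months in E1KO and DKO as well. Lifr, the receptor subunit for leukemia inhibitory factor, was at 133.83 and 32.11 FPKM in WT and at 105.16 and 68.6 in E2KO. Cdh1, the periportal adhesion protein E-cadherin, was at 11.61 and 2.24 FPKM in WT and at 11.7 and 1.21 in E2KO. Cps1, the first enzyme of the urea cycle, was at 524.81 and 167.16 FPKM in WT and at 506.63 and 362.59 in E2KO. Of 44 tested urea cycle and amino acid genes 4 were called lower and 1 higher, with a median of -0.01.

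**Figure D4:**
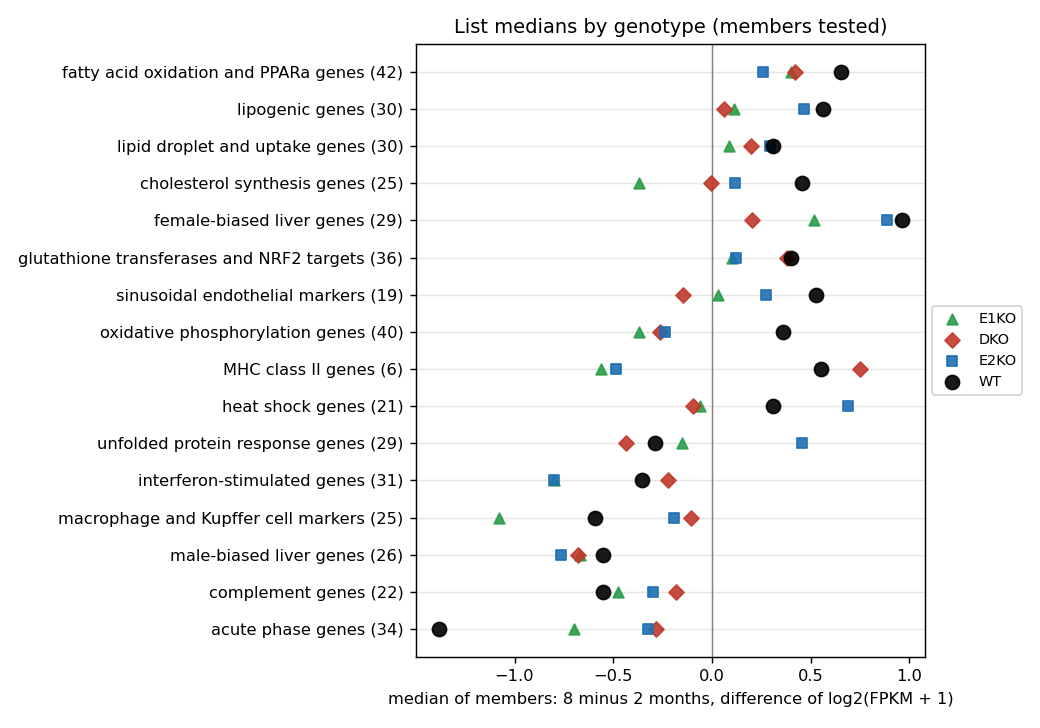
Median difference (8 minus 2 months, log2(FPKM + 1)) of 16 gene lists in each genotype, with the number of members tested in brackets. WT (black circles) is farthest left for acute phase genes at -1.38 and lies on the other side of 0 from E2KO (blue squares) for unfolded protein response, MHC class II and oxidative phosphorylation genes.

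Chaperone genes of the endoplasmic reticulum went opposite ways in WT and E2KO. The unfolded protein response raises them when unfolded proteins build up in that compartment. Of 30 listed genes 29 were tested, all at 1 FPKM or more at both ages. In WT 4 were called lower and 0 higher (median -0.29), against 2.21% and 2.94% of all genes. In E2KO 9 were called higher and 0 lower (median 0.46), against 1.71% and 1.23% of all genes. The medians of E1KO and DKO were -0.15 and -0.43. Hyou1, an endoplasmic reticulum chaperone, was at 46.18 and 22.02 FPKM in WT and at 22.67 and 67.36 in E2KO. Creld2, a disulphide isomerase gene, was at 51.05 and 25.99 in WT and at 18.55 and 144.63 in E2KO, and Hspa5, which encodes the sensor chaperone BiP, at 429.58 and 285.08 and at 271.6 and 754.52. For these 3 genes E2KO was below WT at 2 months and above it at 8 months. E1KO and DKO were lower at 8 months for all 3, at 44.08 and 39.21 FPKM and 37.09 and 15.78 FPKM for Hyou1. Xbp1, a transcription factor of this response, was at 204.92 and 101.75 FPKM in WT and at 118.89 and 124.12 in E2KO. Derl3, which helps retrieve unfolded proteins and is outside that list, was at 3.68 and 0.79 FPKM in WT and at 3.26 and 13.45 in E2KO. The promoters of Creld2 (chr15:88819396-88819695) and Derl3 (chr10:75893148-75893447) are shown for the endoplasmic reticulum stress element, CCAAT followed by any 9 bases and CCACG, in capitals. They are from the same RefSeq table, plus strand, 250 bases before to 50 after the start.
Creld2: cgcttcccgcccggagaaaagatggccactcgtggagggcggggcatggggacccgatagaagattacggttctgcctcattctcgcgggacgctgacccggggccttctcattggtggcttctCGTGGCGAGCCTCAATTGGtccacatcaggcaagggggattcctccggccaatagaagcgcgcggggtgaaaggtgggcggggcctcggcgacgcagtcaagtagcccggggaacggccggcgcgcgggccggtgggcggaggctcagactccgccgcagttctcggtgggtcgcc
Derl3: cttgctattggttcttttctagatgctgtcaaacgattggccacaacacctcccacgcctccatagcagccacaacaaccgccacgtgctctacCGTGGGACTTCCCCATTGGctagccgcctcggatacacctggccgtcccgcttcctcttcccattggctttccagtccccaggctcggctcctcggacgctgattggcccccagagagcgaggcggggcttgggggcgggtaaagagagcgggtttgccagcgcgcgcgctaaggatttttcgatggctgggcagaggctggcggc
Each held 1 match, both on the reverse strand, against 0.119% of all promoters. Of the 24 tested members with a promoter in the table, 7 held 1 (Calr, Canx, Creld2, Dnajc3, Hsp90b1, Hspa5 and Pdia6). Among heat shock genes, which guard proteins in the cytosol, 1 of 21 was called higher in WT and 6 in E2KO, with medians of 0.31 and 0.69.

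Over all genes tested, 16 protein-coding genes were past 1 in WT and past 1 the other way in E2KO. They were 5 of the 221 higher and 11 of the 158 lower ones. Of all 9820 protein-coding genes, 91 were called lower and 106 higher in E2KO. Among the 11 that were lower in WT were Fkbp5, a glucocorticoid-induced co-chaperone gene (31.04 and 7.76 FPKM in WT, 5.25 and 24.14 in E2KO), the fasting-induced Igfbp1 (14.24 and 4.52, 25.99 and 61.45) and Lpin1, a phosphatidate phosphatase (85.72 and 39.22, 55.05 and 120.95). Lars2, a mitochondrial leucyl-tRNA synthetase gene, was at 402.95 and 118.62 FPKM in WT and at 78.24 and 1029.83 in E2KO. Fkbp5, Lpin1 and Lars2 started higher in WT than in E2KO and ended lower. Among the 5 that were higher in WT was Raet1d, a ligand of the NKG2D receptor, at 1.25 and 21.73 FPKM in WT and at 1.95 and 0.35 in E2KO. Ccl27a, a chemokine gene, was at 5.18 and 14.57 FPKM and at 7.14 and 1.46.

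Few markers of other liver cells were called. Over all genes tested, 5038 were above 0 and 5211 below 0 in WT. Called higher and lower were 2.94% and 2.21% of them in WT, and 1.71% and 1.23% in E2KO. Of 25 tested macrophage and Kupffer cell markers 23 were below 0 in WT (median -0.59, 1 called lower). The summed level of the list in WT was 395 FPKM at 2 months and 263 at 8 months. The median was -0.19 in E2KO, -1.08 in E1KO and -0.105 in DKO. The sum was lower at 8 months in E2KO and E1KO too, but in DKO it went from 451 to 645 FPKM. Lyz2, the macrophage lysozyme, was at 30.89 and 14.07 FPKM in WT and Cd5l, a Kupffer cell protein gene, at 25.58 and 13.01. All 19 sinusoidal endothelial markers were above 0 in WT, with a median of 0.53 and 1 called, and in E2KO the median was 0.27. The 6 tested MHC class II genes, which mark antigen-presenting cells, were all above 0 in WT (median 0.55, none called) and had a median of -0.49 in E2KO. H2-Aa was at 16.77 and 27.15 FPKM in WT and at 29.75 and 21.2 in E2KO. Of 31 interferon-stimulated genes 2 were called lower in WT, Ifi47 (16.82 and 5.06 FPKM) and Usp18 (7.51 and 2.78), and 9 in E2KO. Of 40 oxidative phosphorylation genes 37 were above 0 in WT (median 0.36, none called), while the median was -0.24 in E2KO. Of 40 ribosomal protein genes 38 were above 0 in WT (median 0.21, 1 called), and 36 were below 0 in E2KO (median -0.16). Of neutrophil markers other than Lcn2, 2 reached 1 FPKM: S100a8 was at 3.09 and 1.11 FPKM and S100a9 at 3.17 and 1.01 in WT. The part of these cells in the acute phase values was not tested. Of 19 matrix genes 2 were called lower, and none of 20 cell cycle genes was called.

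Short non-coding RNA genes took a large share of the calls. RefSeq gives 150 of the tested genes (1.46%) as microRNA, small nucleolar or similar short RNA genes, and they were 47 of the 302 higher genes (15.6%) and 63 of the 227 lower genes (27.8%). Of the 63, 56 were listed at 0 FPKM at 8 months, and of the 47, 16 were listed at 0 at 2 months. Snord42b, for example, was listed at 0 and 1479.36 FPKM in WT and at 59 and 1221.51 in E2KO, and Snord2 at 48.13 and 0 in WT and at 15.18 and 0 in E2KO. E2KO had the same sign for 28 of the 47 (59.6%) and 16 of the 63 (25.4%). It had the opposite sign for 9 of the 47 and 29 of the 63, and the rest had a difference of 0 there. Of all 150 short RNA genes, 79 (52.7%) were above 0 and 41 below 0 in E2KO, so both same-sign shares were near those of all of them. An FPKM divides by gene length, so few fragments on such a short gene give a high value, and their number is unknown here.

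A linear model asked which genes had an age difference that repeated over genotypes. It was fitted with limma to the 8 columns of 4 genotypes with additive terms for genotype and age, and its spread is the departure of the 4 age differences from each other, with 3 residual degrees of freedom. WT is 1 of the 4 pairs, so this is not a test of WT alone. With Benjamini-Hochberg adjustment over 10279 genes, 96 genes were higher at 8 months (0.934%) and 50 lower (0.486%), each with the same sign in all 4 genotypes. Of these, 49 and 24 were among the WT calls. The counts shrank with fewer genotypes: without E1KO 12 genes passed as higher and 10 as lower, without DKO 10 and 12, without WT 1 and 3, and without E2KO 64 and 38. Of the WT calls, 1 of 302 and 3 of 227 passed in the fit without the WT columns, in which 164 and 78 had an unadjusted p under 0.05 in the WT direction. Of all 10279 genes, 1029 were higher and 988 lower at an unadjusted limma p under 0.05 in that fit.

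The genes called over all 4 genotypes included members of the groups above. Serpinb1a, an inhibitor of neutrophil proteases, was at 0.56 and 3.58 FPKM in WT and at 1 and 5.85 in E2KO, and rose by 1.76 (SE 0.09) over the genotypes (limma adjusted p = 0.0039, 0.0136 to 0.0463 in the 4 fits without a genotype). Gm5424, which RefSeq gives as a transcribed pseudogene, was at 16.13 and 0.44 FPKM in WT and at 16.1 and 0.33 in E2KO. It fell by 3.48 (SE 0.13, limma adjusted p = 0.000868, 0.000855 to 0.0463). How reads that match several copies were counted is not known for Gm5424 either. Serpinb1a, Gm5424 and the short RNA genes Mir1948 and Snord72 were the 4 of 146 that passed in every fit without a genotype. Of the 146, 84 passed in none. Plin4, a perilipin of droplets, was at 0.4 and 3.28 FPKM in WT and at 0.54 and 2.85 in E2KO, and rose by 1.49 (SE 0.09, limma adjusted p = 0.00571, and 0.0709 without WT). Acot3 rose by 2.93 (SE 0.22, limma adjusted p = 0.0109, and 0.079 without WT) and Tff3, a trefoil peptide gene at 9.92 and 0.58 FPKM in WT, fell by 2.98 (SE 0.21, limma adjusted p = 0.01, and 0.0887 without WT). F11, coagulation factor XI, at 74.05 and 30.73 FPKM in WT and 65.33 and 25.27 in E2KO, fell by 1.26 (SE 0.09, limma adjusted p = 0.00951, 0.0539 without DKO and 0.079 without WT). Cd36 rose by 2.67 (SE 0.26, limma adjusted p = 0.0238) and passed without E2KO (0.0169), but not without DKO (0.055), E1KO (0.0848) or WT (0.0887).

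By list, limma called in the fit with all 4 genotypes 6 of 42 fat oxidation genes higher (Acot3, Acot4, Aldh3a2, Crat, Acadm and Pex11a), and 4 of 30 uptake and droplet genes higher (Cd36, Plin4, G0s2 and Ces1d) with Lpl lower. It called 5 of 29 female-biased genes higher and 3 of 26 male-biased genes lower. Because the fit holds the WT columns that set the WT differences, the same lists were read in the fit without WT, where 0 of these calls passed: the lowest limma adjusted p was 0.079 on the fat oxidation list, 0.0709 on the droplet list, 0.079 on the female-biased and 0.0799 on the male-biased list. All of these calls had an unadjusted limma p under 0.05 there, 6, 5, 5 and 3 genes by list. They were picked by a fit that holds the same columns, so this is no separate support. Over whole lists, at an unadjusted limma p under 0.05 without WT, 24 of the 42 fat oxidation genes were higher and 0 lower. Of the 30 droplet genes 11 were higher and 3 lower there. Of the 29 female-biased genes 13 were higher and 2 lower, and of the 26 male-biased genes 0 and 10. Of all 10279 genes, 1029 were higher and 988 lower at that threshold in the fit without WT. Members of a list share the same columns, so these counts are no test of a list. Of the calls, 3 of the 6 fat oxidation genes (Acot4, Acadm and Pex11a) and 2 of the 5 droplet genes (G0s2 and Ces1d) passed in none of the 4 fits without a genotype, as did 3 of the 5 female-biased and 2 of the 3 male-biased genes. Cyp4a14, at an estimate of 3.77 (SE 0.81), did not pass (limma adjusted p = 0.0938). None of the 34 acute phase genes passed: the lowest limma adjusted p there was that of Orm1, an acid glycoprotein gene at 2202.75 and 1166.79 FPKM in WT and 1639.36 and 974.14 in E2KO (0.0517). At an unadjusted limma p under 0.05, 18 of the 34 were lower and 1 higher, where 983 and 1192 of all 10279 genes were. That fit holds the WT columns that set the WT differences. In the fit without WT 16 of the 34 were lower and 1 higher, where 988 and 1029 of all genes were. For Saa2 the limma adjusted p was 0.178 and for Mt2 0.468. Of the 29 unfolded protein response genes none passed. With all 4 genotypes, 2 were higher and 4 lower at an unadjusted limma p under 0.05, near the shares over all genes.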

How the data were processed

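RNA-seq of whole liver was taken from single pooled columns for WT, E1KO, E2KO and DKO at 2 and 8 months. The authors deposited FPKM values for 22520 genes in 12 columns, to 2 decimals; per the submitters' processing notes CASAVA, TopHat and Cufflinks were used on mm9, and the sources used here do not say how replicates were combined. The CCl4 columns and ChIP-seq samples are not analysed here, and some list members are counted but not reported singly. Genes of 1 FPKM or more in a WT column were kept, log2(FPKM + 1) was differenced between ages, and differences of 1 or more were called. Age over genotypes was fitted with limma 3.58.1 (R 4.3.3; lmFit, eBayes with trend; two-sided, Benjamini-Hochberg, threshold 0.05), tested on simulated data first. Biotypes, spans and promoters are from RefSeq GRCm38.p6 by symbol (10217 of 10279 matched). Differences of log2(FPKM + 1) understate changes of low genes, and without counts depth and its error are unknown. Nothing in the labels says that the pooled animals of a group were prepared separately.

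Genes were named by rule: those with the 12 highest and 12 lowest WT differences that E2KO shared at 0.5 or more, up to 5 per list, up to 6 per direction opposite in E2KO, the 10 lowest limma p-values per direction, and Ezh1, Ezh2, Xist and Y-linked genes. Because short RNA genes filled much of the highest and opposite differences, the same rules were run over protein-coding genes with more names per direction, after the values were seen. A few further list members, and genes at the edge of the call, were named after their values were seen. The 50 gene lists and this comparison were chosen with earlier results of these data known.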

Additional observations from a re-analysis of the deposited data

Results flagged for a closer look

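WT and E2KO moved in opposite directions between the ages for the genes and lists named here, each at 1 pooled value per group and age. The difference between the genotypes was not tested, because no group has a spread of its own. All values are 8 minus 2 months of log2(FPKM + 1).

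Protein-coding genes past 1 in both genotypes and higher in WT but lower in E2KO were 2410076I21Rik (1.75 in WT and -1.34 in E2KO), Ccl27a (1.33 in WT and -1.73 in E2KO), Dct (1.16 in WT and -1.41 in E2KO), Raet1d (3.34 in WT and -1.13 in E2KO) and Hist2h2ac (1.12 in WT and -1.04 in E2KO). Lower in WT but higher in E2KO were Fkbp5 (-1.87 in WT and 2.01 in E2KO), Lars2 (-1.76 in WT and 3.70 in E2KO), Derl3 (-1.39 in WT and 1.76 in E2KO), Igfbp1 (-1.47 in WT and 1.21 in E2KO), Socs2 (-1.20 in WT and 1.48 in E2KO), Lpin1 (-1.11 in WT and 1.12 in E2KO), Cyp39a1 (-1.08 in WT and 1.19 in E2KO), Ung (-1.05 in WT and 1.27 in E2KO), Hyou1 (-1.03 in WT and 1.53 in E2KO), Lbp (-2.13 in WT and 1.03 in E2KO) and Steap4 (-1.97 in WT and 1.01 in E2KO).

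Non-coding RNA genes chosen by the same rule and higher in WT were Bc1 (7.86 in WT and -5.35 in E2KO), Snord1b (4.63 in WT and -3.35 in E2KO), Mir5107 (3.20 in WT and -2.89 in E2KO), Mir692-1 (3.22 in WT and -2.81 in E2KO), Snora61 (2.62 in WT and -5.39 in E2KO) and Mir3572 (2.43 in WT and -2.95 in E2KO). Lower in WT were Mir3058 (-4.58 in WT and 3.92 in E2KO), Mir199a-1 (-3.92 in WT and 6.12 in E2KO), Snord8 (-3.90 in WT and 3.54 in E2KO), Mir24-1 (-5.04 in WT and 3.16 in E2KO), Mir25 (-2.81 in WT and 6.11 in E2KO) and Mir877 (-2.76 in WT and 4.59 in E2KO). Each of them was listed at 0 FPKM in at least 1 of the 4 columns.

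List medians on opposite sides of 0, each 0.2 or more in size, were those of MHC class II genes (0.55 in WT and -0.49 in E2KO), oxidative phosphorylation genes (0.36 in WT and -0.24 in E2KO) and unfolded protein response genes (-0.29 in WT and 0.46 in E2KO). E1KO and DKO did not side with one of them throughout: the MHC class II median was -0.56 in E1KO and 0.75 in DKO, that of oxidative phosphorylation genes was -0.37 and -0.26, and that of the unfolded protein response was -0.15 and -0.43. Beside the oxidative phosphorylation values, ribosomal protein genes had medians of 0.21 in WT and -0.16 in E2KO, and the bin of protein-coding genes with the shortest span had 0.197 and -0.096. The part of gene length in these medians was not tested.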

How the results depend on the processing

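Each group is 1 pooled column, so leaving out a replicate was not possible. No paired analysis was possible because the pooled columns carry no replicate numbers to pair animals by; the fit over genotypes pairs the 2 ages by genotype only. Of the WT counts, 302 higher genes became 434 with a pseudocount of 0.1, 363 with 0.5 and 248 with a 5 FPKM minimum, and 968 called at 1.5-fold. The 227 lower genes became 409, 287 and 180, and 710 at 1.5-fold, and 131 with E2KO in place of the 2-month WT column. Called at 1.5-fold, E2KO had the same sign for 641 higher (66.2%) and 443 lower genes (62.4%). Median-ratio scaling gave 304 and 227, shifting the WT median by 0.002. Over genotypes, the limma counts of 96 higher and 50 lower genes became 12 and 10 without E1KO, 10 and 12 without DKO, 1 and 3 without WT, and 0 and 4 with no filter on low values, where 18682 genes were tested and 1784 and 1226 had an unadjusted p under 0.05. The WT calls that passed limma, 49 and 24, became 1 and 3 without the WT columns. The exchange of WT for E2KO columns, the restriction to protein-coding genes and this last count were chosen after seeing the data. Of 274 named genes, none changed its sign while called in WT; 22 passed the call with a pseudocount of 0.1 that did not in the report, and 12 with 0.5. List medians moved by 0.25 or more for 4 of 50 lists with a pseudocount of 0.1, and for 8 without the filter. Depth is unknown, so low genes and those listed at 0 carry an error that cannot be given.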

Other observations

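Several genes outside the groups described above were called in WT, with sizes that varied among the genotypes. Lgals1, a sugar-binding protein of connective tissue and immune cells, was at 17.91 FPKM at 2 months and 188.75 at 8 months in WT, at 23.48 and 41.35 in E2KO, at 22.07 and 62.69 in E1KO and at 28.87 and 154.39 in DKO. Pltp, the phospholipid transfer protein of plasma, was at 11.55 and 88.32 FPKM in WT and at 13.78 and 27.19 in E2KO, while its difference was -0.71 in E1KO and -0.56 in DKO. Wfdc2, a secreted protease inhibitor gene, was at 1.03 and 9.48 FPKM in WT at 1.25 and 15.81 in E2KO and at 3.67 and 16.4 in E1KO, but already at 32.29 at 2 months in DKO (59.5 at 8 months). Olig1, best known as a transcription factor of oligodendrocytes, was at 0.26 and 8.66 FPKM in WT and at 0.62 and 4.09 in E2KO, with the same sign in E1KO and DKO.

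On the lower side, the lens crystallin gene Crybb3 was at 8.13 and 0.39 FPKM in WT and at 1.99 and 0.21 in E2KO. Moxd1, a monooxygenase gene on the male-biased list, was at 3.82 and 0.03 FPKM in WT and at 10.61 and 0 in E2KO, but at 0.01 to 0.05 in all 4 columns of E1KO and DKO. Hsd17b2, which inactivates sex steroids, was at 230.97 and 98.37 FPKM in WT and at 204.36 and 87.79 in E2KO, and was called over the 4 genotypes (limma adjusted p = 0.023, 0.0869 without E1KO, 0.078 without DKO and 0.0887 without WT).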
